A study of Mus musculus with 2 samples.

Results

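The miR-125, miR-99/100 and miR-10 families are related miRNAs, and 8 of them were examined here among the 1881 mouse miRNAs on the array. They are mmu-miR-125a-5p, mmu-miR-125b-5p, mmu-miR-125a-3p, mmu-miR-99a-5p, mmu-miR-99b-5p, mmu-miR-100-5p, mmu-miR-10a-5p and mmu-miR-10b-5p, written below without the species prefix. They were taken by exact match of the name that the scanner files give each probe. All 8 were on the array. The RNA came from exosomes, small membrane vesicles, shed into the medium by LLC (Lewis lung carcinoma) cells, a tumour line of the mouse lung. The cells had spent 24 h without serum and with cisplatin, a DNA-damaging platinum drug, at 5 µM. There was 1 group of 2 independent experiments, each read on its own one-colour (Cy3) array, and untreated cells were not analysed here. The values below therefore describe which of the 8 miRNAs gave a signal in these vesicles and how far the experiments differed, not an effect of the drug, and no p-values were computed.

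A miRNA guides the silencing machinery to mRNAs that pair with its seed, the stretch of bases 2 to 8. miR-125 is the mammalian relative of the worm miRNA lin-4, and miR-125b is known to lower p53 and several pro-apoptotic proteins. miR-99 and miR-100 are known to repress Mtor, and miR-10a and miR-10b lie among Hox genes, some of which they target. miR-10b is known from work on breast cancer metastasis. miR-125 and miR-99/100 genes sit in clusters that also hold let-7 genes.

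The 8 mature sequences, from RefSeq on GRCm38.p6, are printed because the 5p arms fall into 3 seed families while the 3p arm of miR-125a stands apart. Capitals mark the seed.
miR-125a-5p: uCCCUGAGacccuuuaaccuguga
miR-125b-5p: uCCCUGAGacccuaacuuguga
miR-99a-5p: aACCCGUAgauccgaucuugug
miR-99b-5p: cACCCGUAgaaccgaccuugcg
miR-100-5p: aACCCGUAgauccgaacuugug
miR-10a-5p: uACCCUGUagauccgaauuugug
miR-10b-5p: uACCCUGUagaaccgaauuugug
miR-125a-3p: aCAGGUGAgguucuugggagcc

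miR-125a-5p and miR-125b-5p share their first 13 bases and are 3 edits apart (bases changed, added or removed). miR-99a-5p and miR-100-5p differ at 1 position counted from the 5′ end, U16A, and miR-10a-5p and miR-10b-5p also at 1, U12A, with the base of the first-named miRNA written first. miR-100-5p and miR-10a-5p are 3 edits apart although their seeds differ. miR-125a-3p is 13 to 16 edits from the 5p members. Probes for miRNAs this alike may share signal, and that was not tested between the members.

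miR-99b-5p, let-7e-5p and the miR-125a arms lie within chr17:17830194-17830876 on the plus strand, a stretch of 683 bp inside the annotated bounds of Spaca6. The miR-99a cluster, with let-7c-5p and a copy of miR-125b-5p, spans chr16:77598940-77646300. The miR-100 cluster, with the let-7a-2 hairpin and the other copy of miR-125b-5p, spans chr9:41531437-41581961, inside the bounds of the lncRNA gene Mir100hg. An array signal of miR-125b-5p cannot be assigned to either of its 2 loci. miR-10a-5p lies at chr11:96317186-96317208 inside the bounds of Hoxb3, and miR-10b-5p at chr2:74726074-74726096 inside those of Hoxd3 and Hoxd4. Exons and introns were not resolved in the gene table used.

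All 8 miRNAs were detected on array 1, and 3 of them were also detected on array 2. A miRNA counted as detected when the summed signal of at least 1 of its probes was over 3 times its error. The 3 detected on both arrays, miR-125a-5p, miR-125b-5p and miR-125a-3p, make 37.5% of the 8, while 10.7% of all miRNAs passed on both. When most spots had to be well above background on both arrays, 2 of the 8 passed, miR-125b-5p and miR-125a-3p, against 4.68% of all miRNAs. On array 1 the background share was 16.6%, and on array 2 it was 10.7%. The other 5, the miR-99/100 and miR-10 members, were detected on array 1 only, as were 5.9% of all miRNAs. Of the 312 miRNAs detected on array 1, 64.4% were also detected on array 2. Members of a seed family, and arms of 1 hairpin, are not independent, so these shares are a description. In RNA from a whole vesicle preparation, fewer vesicles that carry a miRNA and fewer copies per vesicle cannot be told apart.

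Array 1 was the brighter array for most miRNAs. Among the 201 miRNAs detected on both arrays, the median difference, array 1 minus array 2, was 0.78 log2 units before scaling, and 175 (87.1%) were brighter on array 1. The 4 detected spike-in controls differed by only 0.06 to 0.27. Scaling by the 75th percentile removed 1.71 log2 units between the arrays. Per the file headers, the arrays shared a slide and a scan, and none of the spots that report miRNAs was saturated. Negative controls averaged an intensity of 0.453 with an SD of 2.33 over spots on array 1, and 1.3 with an SD of 2.66 on array 2, and their mean plus 3 SD was 7.44 and 9.27. The number of arrays limits the precision of every value.

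miR-125b-5p, a relative of lin-4 that is widely studied in cancer, gave a clear signal on both arrays. Averaged over 2 probes, it had an unscaled log2 signal of 6.84 (array 1) and 5.27 (array 2). Scaling brought this to 5.99 for array 1 and 6.12 for array 2, with a mean of 6.05 ± 0.10 (SD, n = 2). The brightest probe total was 9.97 times its error on array 1 and 9.74 times on array 2, and both probes passed on both arrays. Its brighter probe had a mean intensity of 382.2 ± 12.4 over 15 spots on array 1 and 127.1 ± 5.70 over 14 spots on array 2 (SD over spots, which are technical repeats). Its dimmer probe gave 34.8 ± 4.53 on array 1 and 12 ± 3.04 on array 2 (SD over 15 spots each). The brighter probe thus exceeded the dimmer by 11-fold on array 1 and 10.6-fold on array 2, so the probes kept nearly the same ratio, and array 1 exceeded array 2 by 3.01-fold at the brighter and 2.89-fold at the dimmer probe.

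miR-125a-5p, which has the same seed, was detected on both arrays with 1 of its 2 probes. It reached an unscaled log2 signal of 3.83 (array 1) and 2.81 (array 2), and the scaled mean was 3.30 ± 0.42 (SD, n = 2). The probe that passed had a mean intensity of 36.8 ± 3.34 over 14 spots on array 1 and 16.7 ± 3.37 over 15 spots on array 2 (SD over spots). The other probe, at 6.45 on array 1 and 3.38 on array 2, lay below the negative-control limits on both arrays. A signal that averages both probes is therefore pulled down by a probe below these limits.

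miR-125a-3p, the other arm of the miR-125a hairpin, ran against the 5p members before scaling. It stood at an unscaled log2 signal of 3.81 (array 1) and 4.51 (array 2) and was the only one of the 8 that was brighter on array 2. Of its 4 probes, 3 were detected on array 1 and 4 on array 2. Its 3 probes detected on both arrays were brighter on array 2, with differences, array 1 minus array 2, of -1.03 to -0.39. Of the 14 probes of the 5p members, only 3 were detected on both arrays, those of miR-125b-5p and the brighter one of miR-125a-5p, and these were brighter on array 1 by 1.17 to 1.59. The other 11 also read higher on array 1, but they were not detected on array 2 and their differences are not sizes. The brightest probe of miR-125a-3p over both arrays had a mean intensity of 18.1 ± 3.22 over 7 spots on array 1 and 36.7 ± 4.47 over 6 spots on array 2 (SD over spots). Its lowest spot on array 2, 32.6, lay above its highest spot on array 1, 22.6. After scaling, the signs were no longer opposed: miR-125a-5p and miR-125b-5p were then also brighter on array 2, by differences of -0.60 and -0.14. For miR-125a-3p the scaled signal came to 2.95 for array 1 and 5.37 for array 2, a mean of 4.16 ± 1.71 (SD, n = 2). Of the 201 miRNAs detected on both arrays, 26 (12.9%) were brighter on array 2 before scaling, and only 1 had a lower difference than miR-125a-3p.

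The hairpin shows how closely the arms are joined in the precursor; capitals mark the 5p arm and then the 3p arm.
Mir125a hairpin (chr17:17830812-17830879, plus strand, RefSeq, GRCm38.p6): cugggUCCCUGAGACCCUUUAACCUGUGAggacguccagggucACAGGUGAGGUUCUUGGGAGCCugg

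Within each array, the 5p arm minus the 3p arm was 0.02 log2 units on array 1 and -1.70 on array 2. Different probes report the arms, so these values do not give a ratio of amounts, but they can be compared between the arrays. Each arm's level averages all its probes, including those not detected. This gap changed by 1.73 between the arrays before scaling and by 1.82 after it, the floor on low spots making the difference. Among hairpins whose arms have names that differ only in 5p and 3p, 10 had both arms detected on both arrays. Arms such as let-7f-5p and let-7f-1-3p, both detected, were not paired this way. Of the 10, 4 (40%) had arms that moved in opposite directions before scaling, and in all 4 it was the 5p arm that was brighter on array 1. These signs depend on the overall offset between the arrays and were not counted after scaling. The other 3 opposed hairpins were miR-466h, with a gap change of 2.37, miR-466i with 1.74 and miR-3102 with 1.28. For let-7b the gap changed by 1.69, although both arms were brighter on array 1, by 1.89 (5p) and 0.20 (3p). The lowest of the 10 changes was -0.47, for miR-199a. An opposed pair is therefore not particular to miR-125a among these hairpins.

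**Figure D1:**
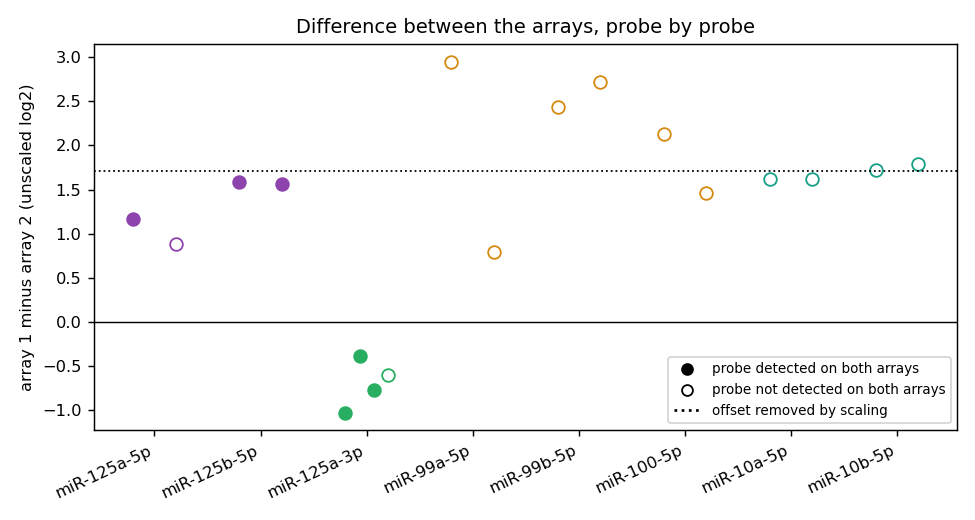
Difference between the arrays for each of the 18 probes of the 8 miRNAs, as array 1 minus array 2 in unscaled log2 signal on the vertical axis, with a point for each probe and colours for the families. Filled points are probes detected on both arrays: those of miR-125a-3p lie between -1.03 and -0.39 and those of the 5p members between 1.17 and 1.59, below the dotted line at 1.71, the offset that scaling removes. Open points rest on a signal that was not detected on at least 1 array and do not show a size.

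The miR-99/100 members, known as repressors of Mtor, were detected on array 1 only. miR-99b-5p had an unscaled log2 signal of 4.33 on array 1 and 1.75 on array 2. Its brighter probe had a mean intensity of 30.6 ± 3.61 over 15 spots on array 1, where the total was 7.36 times its error, and 6.35 ± 2.61 over 14 spots on array 2, where it was 2.13 times its error. On array 1 all 15 spots of this probe were well above background, and on array 2 none were. With the lowest intensity of any detected probe on array 2 (9.18) as the limit, miR-99b-5p was at least 3.34-fold brighter on array 1 before scaling. This limit is an observed intensity, whereas detection was called on probe totals over their errors. The bounds given below for other members use the same limit, and none takes the spread over spots into account.

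miR-100-5p, which differs from miR-99a-5p by 1 base, had an unscaled log2 signal of 3.05 on array 1 and 1.25 on array 2. Its brighter probe had a total of 4.23 times its error on array 1 and 1.19 times on array 2, and was at least 1.43-fold brighter on array 1. miR-99a-5p had a log2 signal of 2.63 on array 1 and 0.76 on array 2, where 15 of its 30 spots were under the floor of 1 intensity unit. Its brighter probe gave a mean intensity of 12.6 ± 2.59 on array 1 and 1.2 ± 2.27 on array 2 (SD over 15 spots each), so that on array 2 it could not be told from the negative controls. The probe totals were 4.09 and 0.41 times their errors, and the brightness on array 1 was at least 1.37-fold that on array 2.

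The miR-10 members, which map inside Hox genes, showed the same pattern of detection. miR-10b-5p had an unscaled log2 signal of 4.08 on array 1 and 2.33 on array 2. Both its probes passed on array 1, and the brighter had a mean intensity of 24.2 ± 4.06 over 15 spots there and 7.89 ± 2.69 over 14 spots on array 2 (SD over spots). On array 2 its total, at 2.61 times the error, came closest to detection among the 5 miRNAs not detected there. It was at least 2.64-fold brighter on array 1. miR-10a-5p had a log2 signal of 2.89 on array 1 and 1.27 on array 2, and its total of 3.62 times the error was the weakest among the 8 on array 1. Its bound was 1.19-fold.

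**Figure D2:**
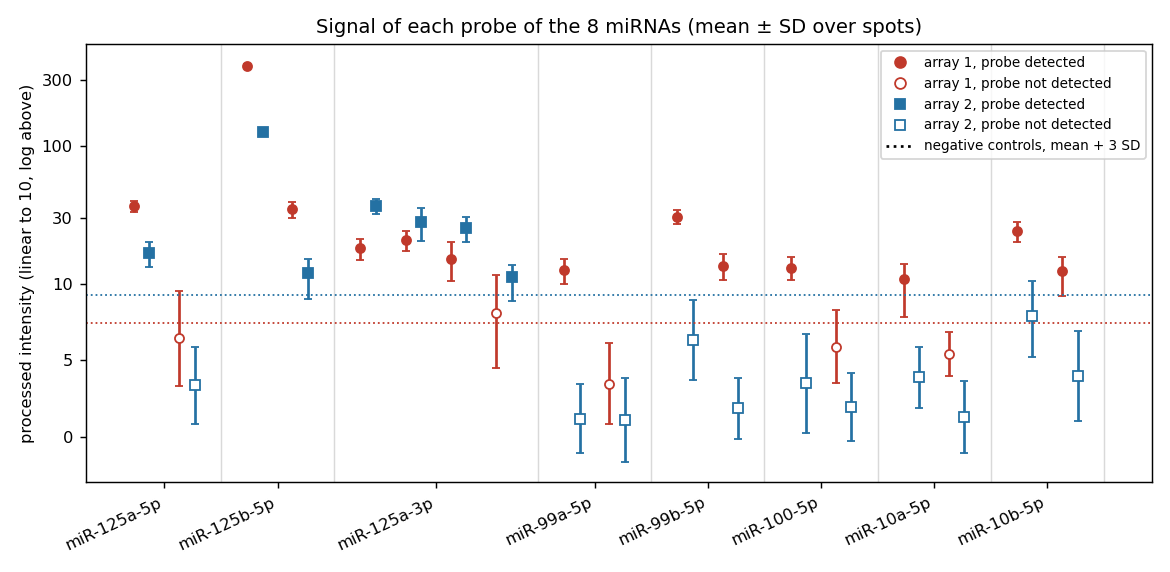
Processed intensity of every probe of the 8 miRNAs on array 1 (circles) and array 2 (squares), as the mean with bars of 1 SD over spots, on an axis that is linear up to 10 and logarithmic above; filled symbols mark probes detected on that array and dotted lines the negative-control limits of 7.44 (array 1) and 9.27 (array 2). On array 2 all 10 probes of the miR-99/100 and miR-10 members are open symbols below the limit, while the brighter miR-125b-5p probe stands at 382.2 and 127.1.

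The limit of detection on array 2 bears on these 5 miRNAs. Their array 2 signals did not pass detection, so the unscaled differences as read, 1.62 to 2.58 log2 units, are not taken as sizes. On array 2 their brighter probes averaged from 1.2 (miR-99a-5p) to 7.89 (miR-10b-5p), against a negative-control mean of 1.3. The offset removed by scaling was 1.71. When the array 1 intensity of each brighter probe was divided by that offset (3.28-fold), 4 of the 5 came out below 9.18, the lowest detected probe on array 2, and miR-99b-5p came to 9.34, just above it. With this offset, a further drop on array 2 could thus not be seen for those 4 at this signal. Whether the limit explains the missing detection was not tested. That outcome depends on the offset, which is the gap between the 75th percentiles. The median difference of the 201 miRNAs detected on both arrays was smaller, 0.78, and the division was not repeated with it. A smaller offset gives higher values, so the count of 4 may not hold with it. Scaled differences were 0.08 for miR-10a-5p, 0.10 for miR-10b-5p, 0.28 for miR-100-5p, 0.60 for miR-99a-5p and 0.998 for miR-99b-5p, where array 2 values near background carry little information. Of all 158 miRNAs detected on array 1 with a log2 signal in the range of these 5 (2.63 to 4.33), 84 (53.2%) were also detected on array 2.

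**Figure D3:**
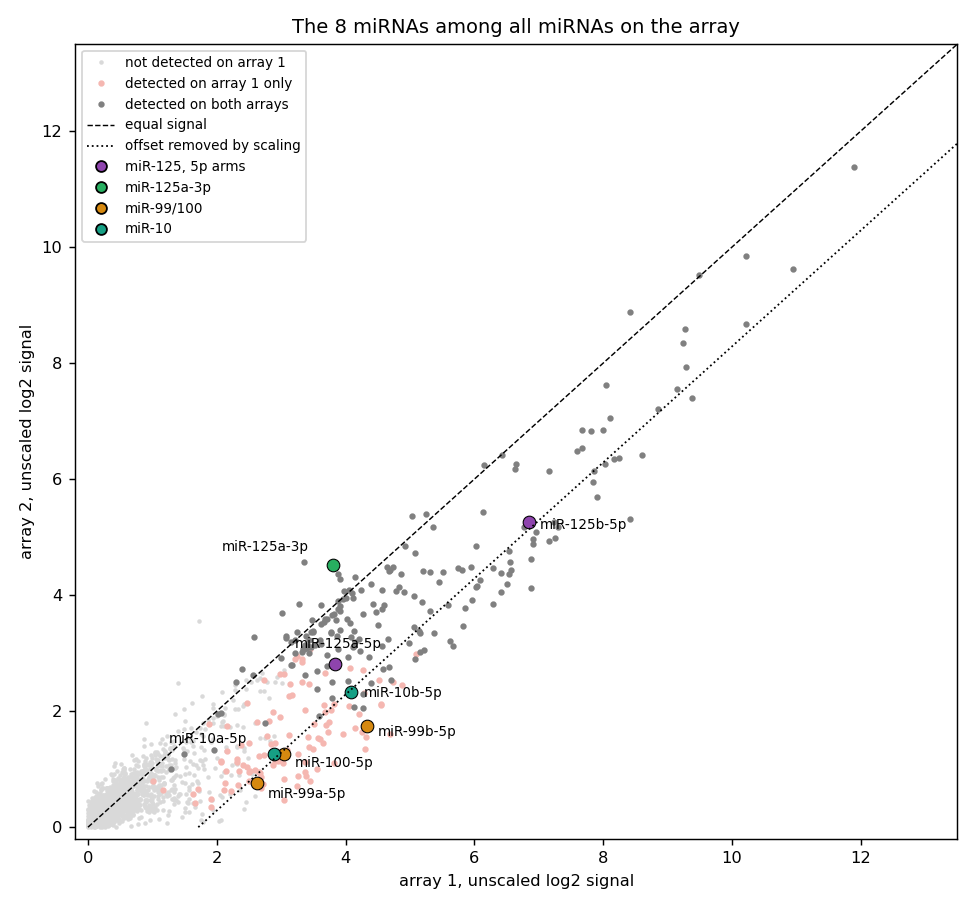
Unscaled log2 signal of each of the 1881 miRNAs on array 1 (horizontal) and array 2 (vertical), with the 8 miRNAs in colour by family, a dashed line of equal signal and a dotted line at the offset of 1.71. miR-125a-3p (3.81 and 4.51) lies above the dashed line, and miR-125b-5p (6.84 and 5.27), miR-10a-5p and miR-10b-5p lie close to the dotted line.

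Of the 7 other arms of these hairpins, which are mostly passenger strands, none was detected on both arrays. miR-99b-3p just passed on array 1, with a probe total of 3.15 times its error, and missed on array 2 at 2.70 times. The log2 signals of the 7 lay between 0.13 and 2.16 on array 1 and between 0.03 and 1.74 on array 2. miR-125b-1-3p and miR-125b-2-3p, the 3p arms that correspond to miR-125a-3p, were not detected on either array. miR-125b-1-3p, at 0.42 on array 1 and 1.11 on array 2, was the higher of them on array 2, with a total of 2.48 times its error.

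Another 3 miRNAs on the array have the miR-125 seed, and none was detected on both arrays. They are shown because they share bases with the detected miR-125 members, with the seed in capitals.
miR-351-5p: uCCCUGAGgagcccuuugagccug
miR-6367: uCCCUGAGacccugguucagga
miR-6394: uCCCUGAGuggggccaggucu
miR-6367 shares its first 13 bases with miR-125a-5p and miR-125b-5p and is 6 edits from miR-125b-5p. It stood at a log2 signal of 0.30 (array 1) and 0.25 (array 2), with probe totals below 0, so its probes gave no signal although miR-125b-5p was bright. miR-351-5p, a rodent relative of miR-125, stood at 0.74 (array 1) and 0.49 (array 2) and was detected on neither. Of its neighbours in the X-linked cluster, miR-322-5p was detected on both arrays (6.55 and 4.58) and miR-503-5p on array 1 only (2.49 and 0.80). miR-6394 was detected on array 1 only, at 2.78 there and 1.58 on array 2. Among the 1608 array miRNAs found in the sequence table, no other shared the seed of miR-99/100, of miR-10 or of miR-125a-3p. The seeds of the remaining array miRNAs were not checked.

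The 3 let-7 5p miRNAs named for the same clusters were detected on both arrays and brighter on array 1 before scaling. let-7e-5p, the neighbour of miR-99b-5p and miR-125a-5p, had an unscaled log2 signal of 6.51 on array 1 and 4.19 on array 2, a difference of 2.32. let-7c-5p had 7.23 on array 1 and 5.26 on array 2, a difference of 1.97. let-7a-5p had 7.25 on array 1 and 4.99 on array 2, a difference of 2.26. let-7c and let-7a also have genes outside these clusters. The 4 let-7 3p arms listed for these clusters (let-7e-3p, let-7c-1-3p, let-7a-1-3p and let-7a-2-3p) were detected on neither array. On chromosome 17, the miRNAs detected on both arrays differed by 2.32 for let-7e-5p, 1.02 for miR-125a-5p and -0.70 for miR-125a-3p. The values of the miR-125a arms average in probes that were not detected. With only probes detected on both arrays they were 1.17 for miR-125a-5p and -0.73 for miR-125a-3p. In these readings the miRNAs of 1 cluster thus did not differ by a common amount between the arrays.

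**Figure D4:**
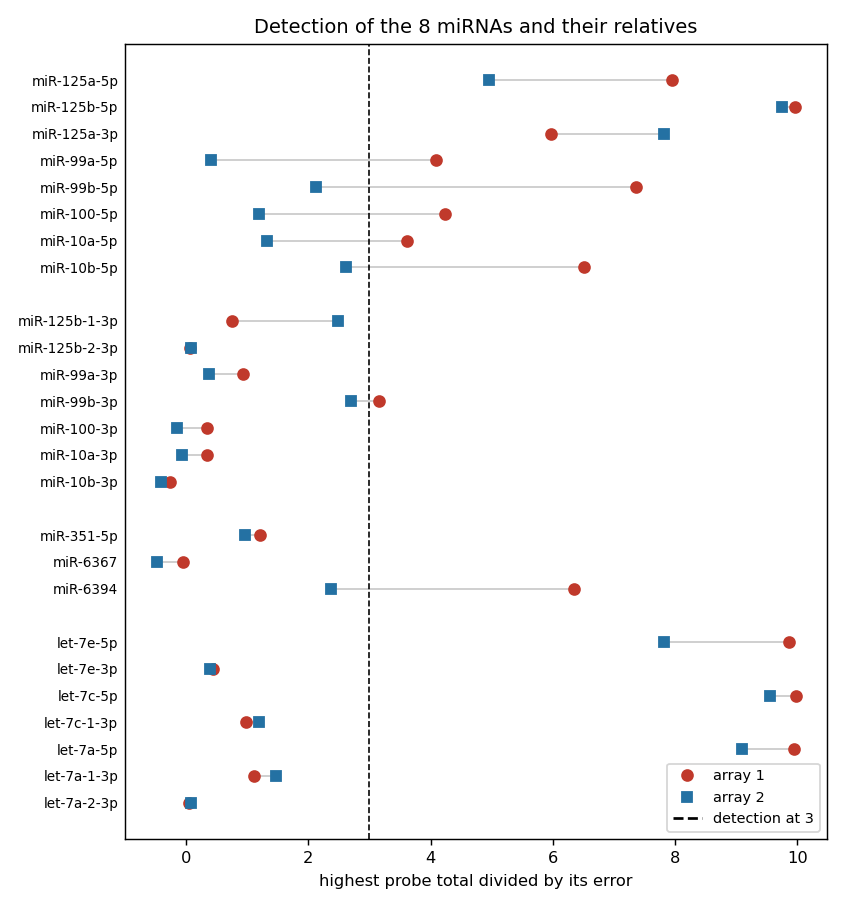
Highest probe total divided by its own error on array 1 (circles) and array 2 (squares) for the 8 miRNAs, the other arms of their hairpins, the miRNAs with the miR-125 seed and the let-7 miRNAs named for the same clusters, with the detection limit at 3. All 8 miRNAs pass on array 1, 3 pass on array 2, and most other arms stay left of the line on both arrays.

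Markers of other cell types were checked because miR-125b, miR-99a and miR-10 are also abundant in stroma, endothelium and other tissues. Of 22 marker miRNAs in 8 lists, 2 were detected on both arrays, while 10.7% of all miRNAs were. These were the stromal miR-199a-3p (6.92 on array 1 and 4.88 on array 2) and miR-214-3p (5.14 and 3.38). The other 2 of the 4 stromal markers, miR-143-3p and miR-145a-5p, were detected on neither array. The endothelial miR-126a-3p and miR-126a-5p were also detected on neither, as were the 3 red cell, 3 muscle, 2 neural markers and the hepatocyte miR-122-5p. The 4 epithelial markers, of the miR-200 family, were also detected on neither array, although the line comes from a carcinoma. Of the 3 leukocyte markers, miR-142a-3p passed on array 1 alone and the others on neither. The list names are labels of the markers, and the vesicles sampled here came from the medium of LLC cells. The part of stromal miRNAs in the signal of the 8 was not tested.

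The authors' deposited table, in log2 values, gives another picture of the weakly detected members. miR-125b-5p had 5.53 on array 1 and 5.24 on array 2 in it, and miR-125a-5p had 2.51 on array 1 and 2.36 on array 2. miR-125a-3p again was higher on array 2, with 1.77 on array 1 and 4.04 on array 2. For miR-99a-5p the authors' deposited table gives -2.14 on array 1 and 0.41 on array 2, for miR-100-5p -2.12 and -0.98, and for miR-10a-5p -2.19 and -0.82, so these 3 are higher on the array where the scanner files do not call them detected. miR-99b-5p has 2.77 on array 1 and the lowest value of that table, -3.32, on array 2, and miR-10b-5p has 2.50 and -0.80. Its 2 columns hold the same values in sorted order, so that table keeps no overall brightness difference between the arrays, unlike the unscaled values. The sources used here do not say how its values were made.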

How the data were processed

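Exosome RNA of 1 group was measured on 2 one-colour arrays. Per the submitters' processing notes, the deposited scanner files, with spot intensity on a linear scale, come from Agilent Feature Extraction (version 10.7.1.1). Per the file headers, the authors' processed intensity had the background and a spatial trend removed on each array and was not normalized between arrays. Other deposited columns are flags of 0 or 1. The deposited value table holds log2 values whose scaling and centring stay unknown, with a median of -3.32 in both columns. Per the labels' protocols, the label came from a cRNA amplification kit, while the headers name a scan protocol for miRNA. Which was used is unknown.

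Population-outlier spots were left out. Intensity was set to at least 1, log2 taken, and spots then probes averaged. For scaled values, each array was first brought to the mean 75th percentile of the miRNAs detected on both arrays (6.29 and 4.58). Values not marked as scaled are unscaled.

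Named were the 8 members, miRNAs with the same seed, other arms, cluster mates, 8 marker lists and the 3 nearest miRNAs. Members and lists were chosen with earlier results of these data known. The hairpins with opposed arms and the names in the listed totals were chosen after their values were seen. let-7c-2-3p, also asked for, had no match on the array. All 8 members matched the RefSeq miRNA table, as did 1608 of the 1881 miRNAs. Alternatives are given in the closing section. Python 3.11.15, numpy 2.4.6, pandas 2.3.3, matplotlib 3.10.9, R 4.3.3 and limma 3.58.1 (normexp) were used. The calculations were tested on simulated arrays of 1881 miRNAs, and 4 of 4 checks passed. Each simulated miRNA was set far above or far below the detection limit, so calls near that limit were not tested.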

Additional observations from a re-analysis of the deposited data

How the results depend on the processing

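On both arrays, 3 of the 8 miRNAs passed detection. The number was 1 (miR-125b-5p) when a probe total had to be over 6 times its error, 2 when most spots of a miRNA had to be flagged well above background (miR-125b-5p and miR-125a-3p), 3 when its mean intensity had to exceed the negative-control limit, and 8 with detection on at least 1 array. Leaving out an array gave 3 to 8. The share of all 1881 miRNAs was 4.52%, 4.68%, 8.72% and 16.6% under the first 4 rules in the order given.

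The median scaled log2 level of the 3 was 4.16. It was 6.29 with normexp (offset 50, which lifts dim signals), 4.78 with the brightest probe, 4.61 with probes detected on both arrays, 2.96 with the sum of detected probes and 2.90 in the authors' table, and it lay between 3.003 and 5.37 when 1 array was left out.

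The median unscaled difference of the 3, array 1 minus array 2, was 1.02. It was -0.60 after scaling, -0.067 after quantile normalization, 0.22 with normexp and 0.15 in the authors' table. Relative to the spike-in controls the median was 0.93, and with outlier spots kept 1.03. The brightest probe gave 1.17, probes detected on both arrays also 1.17, and the sum of detected probes 1.14. Scaling turned the difference of miR-125a-5p to -0.60 and that of miR-125b-5p to -0.14, and quantile normalization turned miR-125b-5p to -0.067. In the authors' table miR-99a-5p turned to -2.54, miR-100-5p to -1.14 and miR-10a-5p to -1.37, and the cause was not tested. miR-125a-3p stayed brighter on array 2 under all 9 alternatives to the difference. Over all values for single miRNAs, 96 stayed within 1 SD between the arrays of the reported value, 54 moved farther and the 6 named turned sign. Part of the 96 was fixed in advance. With 2 arrays, a level with 1 array left out always lies within 1 SD of the mean. For differences, the SD came from the same 2 values as the difference itself, so the limit was wide. The count is therefore not a measure of robustness. No paired analysis was possible because there was 1 group, and both arrays shared a slide, so slide could not be used as a block. With 2 arrays and members near background on array 2, only miR-125b-5p was detected under all the rules that required both arrays.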

Other observations

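Each miRNA also has a listed total signal in the scanner files, which for some members was larger than what their detected probes add up to. On array 1 it exceeded that sum for 4 of the 8, and on array 2 for 1 of the 3 detected. For miR-100-5p on array 1 the listed total was 58.8 against 2.78 from its own probes, and the excess of 56 equals the listed total of let-7i-5p, the detected name before it in alphabetical order. For miR-10a-5p the listed total was 7.33 against 2.31, and the excess of 5.02 equals the total of miR-107-3p. For miR-125a-5p the listed total of 20.6 on array 1 and 14.3 on array 2 exceeded its own 7.79 and 3.53 by 12.8 and 10.7, which are the listed totals of miR-125a-3p on those arrays. miR-125b-5p, miR-99a-5p, miR-99b-5p and miR-10b-5p had listed totals that equal their own sums on array 1. None of the detection calls or levels above use the listed total, except where it is named as an alternative.

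The miRNAs outside the families with signals nearest to the mean of the 3 members detected on both arrays, by Euclidean distance over 2 arrays, were miR-6538 (4.82 on array 1 and 4.14 on array 2), miR-5121 (4.78 and 4.08) and miR-7018-5p (4.91 and 4.06). The members' mean was 4.83 on array 1 and 4.19 on array 2. With 2 arrays this likeness is a description of brightness alone.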
